A study of Flaveria sonorensis and Flaveria ramosissima with 8 samples.

Results

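The *F. sonorensis* transcripts described here are 185 rows of a leaf expression table, out of 23519 rows in all (0.787%), that were chosen by their measured values: a mean of at least 10 TPM over the 4 *F. sonorensis* libraries together with a value of exactly 0 in each of the 4 *F. ramosissima* libraries. TPM divides the reads of a gene by the length of its transcript and scales each library to a total of 1000000 transcripts, so that genes can be compared with each other within a library. Because both criteria were used for the choice, the difference between the species is a property of the selection and was not tested. Rows carry a running number in place of a gene name, and the table does not pair these numbers with symbols, loci or sequences. The rows are therefore described by abundance, rank, replicate spread and position in the numbering, and apart from a pair of named rows they are referred to by their rank among the 185.

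All 8 libraries came from newly expanded mature leaves of plants held at low CO2, with 4 libraries from *F. sonorensis* and 4 from *F. ramosissima*. Per the labels, the growth chamber was set to 22 °C, 70% humidity, light at 200 μmol m-2 s-1, and 16 h of light followed by 8 h of dark, and CO2 was set to 100 in a unit that the labels give as a flux. The labels add 6 months without saying what this period refers to, and give no treatment that differs between the species. Whether the replicates came from separate plants is not stated, so each SD measures the spread between these libraries, which may be technical.

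*Flaveria* is a genus of the daisy family that holds C3, C4 and C3–C4 intermediate species, and it is a standard system for the study of how C4 photosynthesis arose. C3–C4 intermediates recapture CO2 released by photorespiration, as glycine made in the mesophyll is decarboxylated in the bundle sheath. *F. sonorensis* relies on this glycine shuttle, whereas *F. ramosissima* also runs part of a C4 cycle. In such leaves the most abundant messenger RNAs usually encode photosynthetic proteins, but none of the rows below can be assigned to them, and the leaf identity of the samples could not be checked against marker genes.

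The meaning of a listed 0 was examined first. Values carry 2 decimals, so that 0 stands for less than 0.005 TPM or for no estimate, and the lowest value above 0 in an *F. ramosissima* library was 0.01 TPM. A transcript below detection and a gene without a counterpart in the sequences used for *F. ramosissima* cannot be told apart in this table. As leaves were sampled in bulk, fewer cells that express a gene and less RNA per cell cannot be told apart either. Of the 7978 rows that averaged 10 TPM or more in *F. sonorensis*, 7729 (96.9%) were above 0 in every *F. ramosissima* library, and the 185 selected rows made up 2.32%. Only 31, 23 and 10 rows were at 0 in 1, 2 and 3 *F. ramosissima* libraries. Rows were thus mostly at 0 in every replicate or in no replicate.

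Rows with a low but measurable level in *F. ramosissima* were counted separately, up to a limit of 1 TPM. A further 243 rows of at least 10 TPM in *F. sonorensis* stayed under 1 TPM in all *F. ramosissima* libraries without being at 0 throughout. Of these, 15 had their highest *F. ramosissima* value under 0.1 TPM, 105 had it from 0.1 to under 0.5 TPM and 123 had it from 0.5 to under 1 TPM. Rows at exact 0 throughout thus outnumbered the rows whose highest value was under 0.5 TPM. The median abundance of these 243 rows in *F. sonorensis* was 15.9 TPM, compared with 20.9 TPM in the 185 rows. Another 240 rows had their highest *F. ramosissima* value from 1 to under 2 TPM, so the limit of 1 TPM does not mark a break.

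Each library was left out of the choice in turn, as a description. For *F. ramosissima*, the rows also at 0 in the library left out are the 185 selected rows each time, by definition. The remaining rows are those at 0 in exactly 3 libraries, 10 in all, so these numbers restate the counts above and are no independent support. When the rule was applied with *F. ramosissima* replicate 1 left out, 191 rows were chosen, and 185 of them (96.9%) were at 0 in replicate 1. The corresponding numbers were 185 of 185 for replicate 2, 185 of 186 for replicate 3 and 185 of 188 for replicate 4. Of all rows of at least 10 TPM in *F. sonorensis*, the 185 included, 2.58% to 2.78% were at 0 in a given *F. ramosissima* library. The rows that were not at 0 in the library left out reached at most 0.32 TPM there. For *F. sonorensis*, between 91.5% and 94.0% of the rows chosen on the other replicates had at least 10 TPM in the library left out. The values of the rows that missed this level ranged up to 9.99 TPM, and the lowest was 0, for 1 row in replicate 1. That row is not among the 185.

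The 4 *F. sonorensis* values lay above the 4 *F. ramosissima* values in 185 of the 185 rows, which the rule fixes, as no *F. sonorensis* value among them is 0. Over the 16323 rows whose mean of all 8 libraries reached 1 TPM, this was the case in 59.2%. The contrast between the species chose the rows, so nothing is read from this count.

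The 185 rows ranged from 10.1 to 4341 TPM, with a median of 20.9 TPM and quartiles of 13.9 and 39.3 TPM. The other 7793 rows of at least 10 TPM had a median of 28.8 TPM, with quartiles of 16.8 and 61.0 TPM. Most of the selected rows were thus of modest abundance, as 145 of 185 (78.4%) lay under 50 TPM compared with 69.4% of the other rows, and 18 (9.73%) reached 100 TPM compared with 15.1%. The mean over the selected rows was nevertheless 106 TPM, close to the 104 TPM of the other rows, because 3 rows exceeded 1000 TPM.

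**Figure D1:**
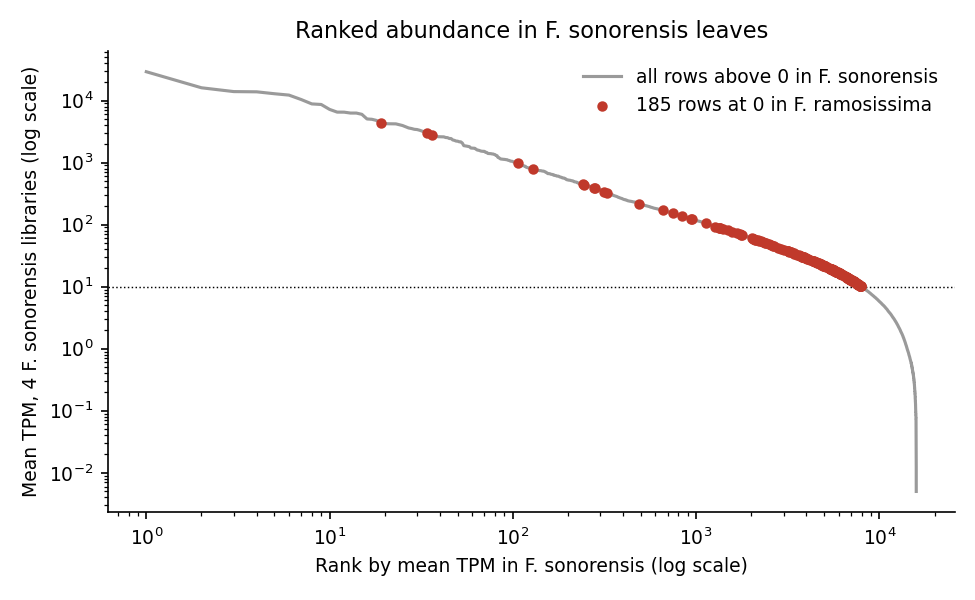
Mean TPM over the 4 *F. sonorensis* libraries against the rank by this mean, both on log scales. The grey line holds all rows above 0 in *F. sonorensis*, the red points are the 185 selected rows and the dotted line marks 10 TPM. The points include 3 rows among the highest 50, then a gap to rank 107, and become dense beyond rank 2000.

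The highest of them were among the most abundant rows listed for the leaf. Gene15444 had 4622, 4567, 4425 and 3751 TPM in *F. sonorensis* replicates 1 to 4. It ranked 19 of all rows by mean and between 17 and 26 in the single libraries, and it alone held 22.1% of the TPM of the 185 rows. Gene02962 had 2238, 3147, 3561 and 3162 TPM and ranked 34, between 29 and 46 in the single libraries. Its spread was larger, with a coefficient of variation (CV, the SD divided by the mean) of 18.5% compared with 9.26% for Gene15444. Gene15444 was lowest in replicate 4 and Gene02962 in replicate 1, therefore the deviations of these rows did not follow a common library. The row ranked 3 had 3203, 2644, 2753 and 2599 TPM and ranked 36 of all rows, between 34 and 39 in the single libraries. The values of rows ranked 2 and 3 overlapped across replicates, so their order is not resolved.

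A step separated these 3 rows from the rest. The row ranked 4 had 942, 1010, 1022 and 913 TPM, and its highest value lay below the lowest value of the 3 rows above it, 2238 TPM. By mean, the row ranked 3 exceeded it 2.88-fold. Its CV of 5.41% was the smallest among the 10 highest. The row ranked 5 followed with 916, 775, 786 and 661 TPM, and its values did not reach those of the row ranked 4 except that 916 TPM in replicate 1 exceeded 913 TPM in replicate 4.

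The rows ranked 6 to 10 had means from 337 to 444 TPM, and the values of rows next to each other in this order overlapped. The row ranked 6 had 350, 430, 500 and 497 TPM. The row ranked 7 had 461, 473, 411 and 410 TPM. Their means differed by less than either SD, 70.8 and 33.1 TPM. The row ranked 8 had 357, 446, 406 and 353 TPM. The row ranked 9 had 322, 398, 420 and 411 TPM. The row ranked 10 had 310, 339, 333 and 367 TPM. The rows ranked 6, 9 and 10 had their lowest value in replicate 1 and the rows ranked 7 and 8 in replicate 4.

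Among the rows ranked 11 to 20, means fell from 323 to 89.9 TPM. The row ranked 11 had 398, 198, 283 and 411 TPM, and its CV of 31.4% exceeded that of every row above it. The row ranked 12 had 182, 193, 241 and 250 TPM. The row ranked 13 had 177, 185, 164 and 157 TPM. In contrast to the row ranked 11, the row ranked 14 was nearly constant, with 156, 149, 148 and 160 TPM and a CV of 3.62%. The row ranked 15 had 129, 120, 146 and 152 TPM. The row ranked 16 had 439 TPM in replicate 1 and 18.1, 19.0 and 19.1 TPM in the others, so its mean of 124 TPM describes none of its libraries. The rows ranked 17 to 20 were again even across replicates. The row ranked 17 had 119, 128, 130 and 113 TPM. The row ranked 18 had 99.9, 116, 107 and 95.4 TPM. The row ranked 19 had 98.6, 97.5, 87.7 and 88.7 TPM, and its values overlapped with those of the row ranked 20. The row ranked 20 had 106, 83.5, 81.8 and 87.9 TPM.

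**Figure D2:**
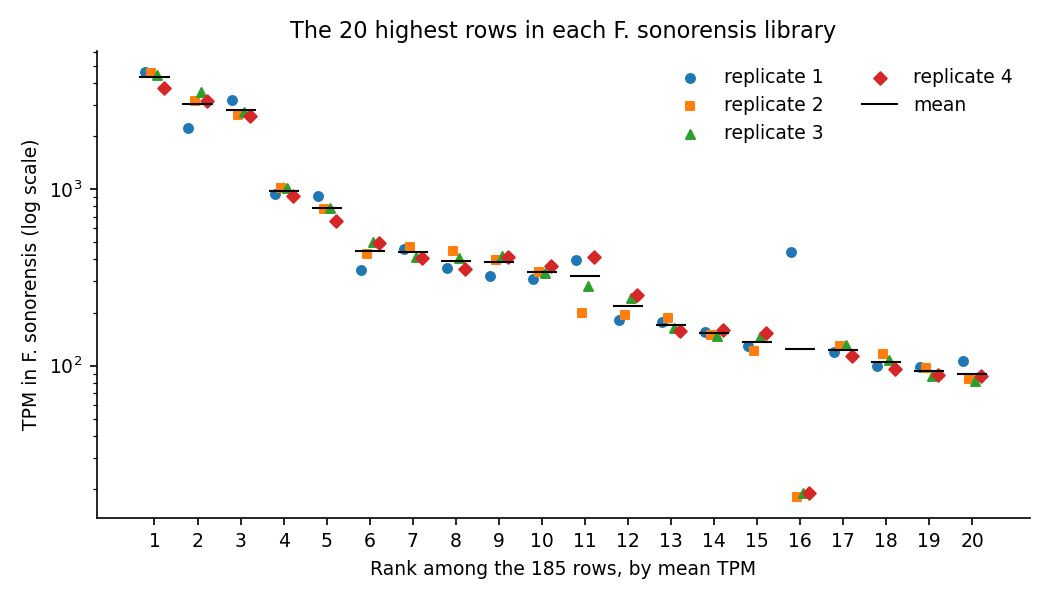
TPM in each *F. sonorensis* library (log scale) for the 20 highest of the 185 rows, with 1 symbol per replicate and a bar at the mean. The first 3 ranks stand apart from the 4th, and rank 16 reaches 439 TPM in replicate 1 and 18.1 to 19.1 TPM in the other libraries.

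The share of the listed *F. sonorensis* TPM held by the 185 rows was nearly the same in each library. It was 2.33% of the column total in replicate 1, 2.27% in replicate 2, 2.31% in replicate 3 and 2.21% in replicate 4, or 2.28 ± 0.0531% (SD, n = 4). The *F. sonorensis* columns sum to between 849828 and 868947 TPM, less than 1000000, so part of the TPM of each library is not listed. Set against 1000000, the share was 1.97 ± 0.0425%. Within the set the abundance was concentrated, as the 3 highest rows held 51.7 ± 1.66% of its TPM, the 10 highest rows of a library 71.1 ± 1.72% and the 20 highest 79.3 ± 0.927%. The 3 highest rows alone made up 1.18 ± 0.0553% of a library, about as much as the other 182 rows together, which made up 1.10 ± 0.0352%. The 145 rows ranked 41 to 185 contributed 0.337 ± 0.00721%.

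The rule of 10 TPM or more restricts the selected rows to the highest 7978 ranks, and their place within these was described. Of 15884 rows above 0 in at least 1 *F. sonorensis* library, they took ranks from 19 to 7937, with a median of 5097 and quartiles of 3018 and 6723. None was among the 10 highest rows, 3 were among the highest 100, 12 among the highest 500, 17 among the highest 1000, 29 among the highest 2000 and 88 among the highest 5000. In the single libraries, the number among the highest 100 was always 3, and the number among the highest 1000 was 16 to 18. Their density along the ranking was 6.0% of the highest 50 rows, 1.70% of the highest 1000 and 2.32% of all 7978 rows of at least 10 TPM.

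Along the range of abundance, the share of rows listed at 0 in *F. ramosissima* was 3.34% (91 of 2725) from 10 to 20 TPM, 1.91% (54 of 2826) from 20 to 50 TPM, 1.78% (22 of 1236) from 50 to 100 TPM, 1.38% (15 of 1087) from 100 to 1000 TPM and 2.88% (3 of 104) at 1000 TPM or more. The last class holds few rows. The opposite pattern, a mean of 10 TPM or more in *F. ramosissima* and 0 throughout *F. sonorensis*, was seen in 1144 of 5817 rows (19.7%), and those rows held 16.5 ± 0.239% of the *F. ramosissima* TPM (SD, n = 4). Their share ranged from 18.2% to 22.6% over the same classes of abundance. The 3 highest of them in a library held 14.4 ± 0.889% of their TPM, and the 20 highest held 38.4 ± 1.61%. In the 185 rows the 3 highest held 51.7 ± 1.66%, but 3 rows are a larger part of 185 rows than of 1144, so these values are not directly comparable. These shares are over different rows chosen by the same values and were not tested. Over all 23519 rows, 15460 were above 0 in an *F. sonorensis* library on average and 19830 in an *F. ramosissima* library. The TMM scaling factors (see the closing sections), by which values are divided, were 1.64 to 1.71 for *F. sonorensis* and 0.506 to 0.669 for *F. ramosissima*. The limit of 10 TPM is therefore not alike between the species after scaling. Scaling lowers *F. sonorensis* values and left 119 of the 185 rows. It raises *F. ramosissima* values, and the 1144 rows were not counted again after it. How scaling bears on the difference between these shares was not tested.

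**Figure D3:**
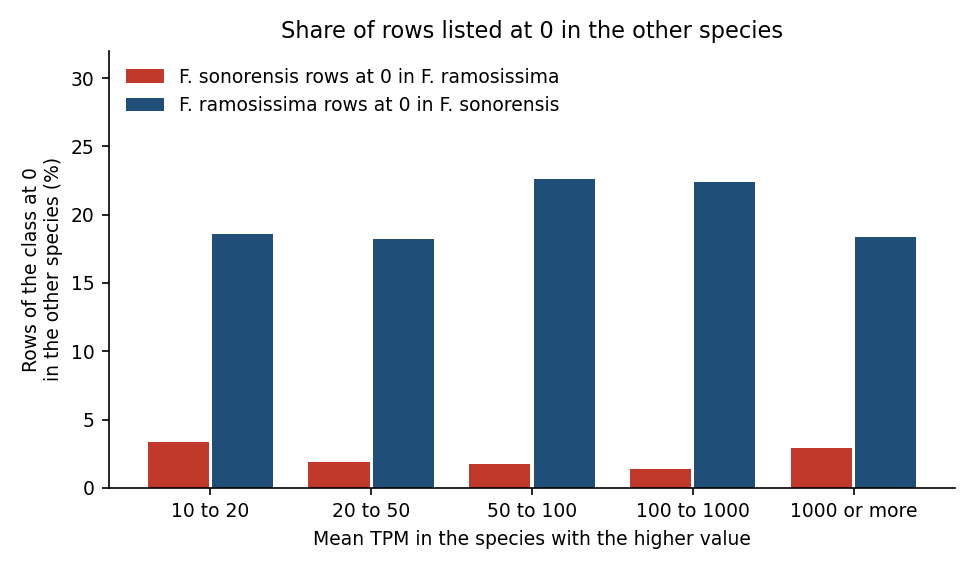
Percentage of the rows in each class of mean TPM that are listed at 0 in all libraries of the other species. Red bars (rows of *F. sonorensis*) stay between 1.38% and 3.34%, and blue bars (rows of *F. ramosissima*) between 18.2% and 22.6%.

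The replicate spread of the selected rows was then compared with that of the other rows of at least 10 TPM, as a description. The median CV over the 4 *F. sonorensis* libraries was 12.6% in the 185 rows, with quartiles of 7.90% and 19.1%, and 11.1% in the other rows, with quartiles of 7.25% and 16.4%. The median SD of log2(TPM + 1) was 0.18 and 0.15. By class of abundance, the median CV was 12.0% in the selected and 12.2% in the other rows from 10 to 20 TPM, 14.2% and 10.5% from 20 to 50 TPM, 15.2% and 10.1% from 50 to 100 TPM, and 10.7% and 11% from 100 to 1000 TPM. The median CV of the selected rows was thus higher between 20 and 100 TPM and close to that of the other rows in the remaining classes. The steadiest of them was the row ranked 39, with 51.5, 49.6, 50.8 and 51.3 TPM (CV 1.70%). The row ranked 28 had 67.3, 68.9, 69.8 and 70.2 TPM (CV 1.87%). The row ranked 67 had 27.4, 28.5, 29.3 and 28.3 TPM (CV 2.85%).

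At the other end, 5 of the 185 rows (2.70%) had 1 library more than 3 times above the next, compared with 15 of the 7793 other rows (0.192%). This threshold was set after the values were seen. Of the 5 rows, 2 peaked in replicate 1 and 3 in replicate 4, and of the 15 other rows 11 peaked in replicate 1 and 3 in replicate 4. Peaks in these libraries thus also occurred outside the selected rows, but made up a smaller share of the 7793 rows than of the 185. This difference rests on few rows and was not tested. The row ranked 31 had the largest CV, 177%, with 217 TPM in replicate 1 and 5.29, 6.88 and 8.09 TPM in the others. Together with the row ranked 16, described above, it peaked in replicate 1. The rows ranked 34, 38 and 57 peaked in replicate 4. The row ranked 34 had 5.57, 7.55, 29.0 and 186 TPM (CV 152%). The row ranked 38 had 22.1, 26.3, 30.3 and 129 TPM. The row ranked 57 had 18.7, 17.5, 15.5 and 75.7 TPM. Of these 5, the rows ranked 31 and 34 owed their place among the 185 to 1 or 2 libraries. The rows ranked 16, 38 and 57 had more than 10 TPM in every library. Outside the 5, rows such as those ranked 164 and 175 likewise reached the mean of 10 TPM through 1 or 2 libraries.

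These 5 rows had little effect on the share of the set. They held 3.54% of the TPM of the 185 rows in replicate 1, 0.379% in replicate 2, 0.501% in replicate 3 and 2.19% in replicate 4. Without them, the share of the listed *F. sonorensis* TPM was 2.24 ± 0.0568%. The Pearson correlation of log2(TPM + 1) between *F. sonorensis* libraries was 0.933 on average over the 185 rows (6 pairs, from 0.892 to 0.981) and 0.974 over the 7793 other rows (from 0.963 to 0.989). Without the 5 rows, it was 0.971 over the remaining 180 selected rows (from 0.958 to 0.985), close to that of the other rows. These correlations are across genes of the same libraries, which are not independent replicates.

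**Figure D4:**
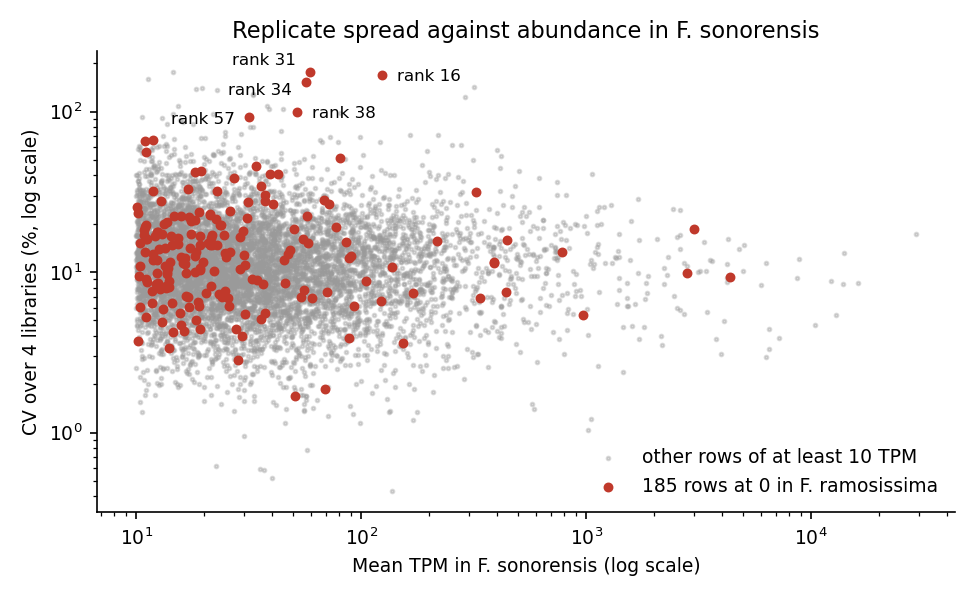
CV over the 4 *F. sonorensis* libraries (%) against mean TPM, both on log scales, for the 185 selected rows (red) and the 7793 other rows of at least 10 TPM (grey). The 5 labelled rows, ranked 16, 31, 34, 38 and 57, have 1 library more than 3 times above the next and CVs from 92.0% to 177%.

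The libraries were also compared over the selected rows as a whole. The highest value of a row was in replicate 1 for 29.2% of the rows, in replicate 2 for 29.7%, in replicate 3 for 16.8% and in replicate 4 for 24.3%. In the other rows of at least 10 TPM these shares were 28.0%, 26.0%, 14.3% and 31.7%. The lowest value was in replicates 1 to 4 for 29.2%, 20%, 24.9% and 25.9% of the selected rows, compared with 41.1%, 22.7%, 17.4% and 18.8% of the other rows. These differences were not tested. The median TPM of the 185 rows was 19.5, 19.6, 19.6 and 20.8 in replicates 1 to 4. Row by row, the median deviation of log2(TPM + 1) from its mean over the 4 libraries was -0.029, 0.016, -0.015 and -0.0021 in the same order, so that replicate 4 was highest in the median of TPM but not row by row.

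The limit of 10 TPM cut through a continuous range. Just inside it, the row ranked 183 had 10.7, 10.3, 9.99 and 9.83 TPM, the row ranked 184 had 9.71, 12.5, 11.4 and 7.04 TPM, and the row ranked 185 had 9.45, 11.8, 12.5 and 6.79 TPM. Just outside it, and likewise without signal in *F. ramosissima*, the next row had 10.3, 8.75, 11.8 and 9.21 TPM (mean 9.99 TPM), followed by rows with means of 9.86 and 9.84 TPM. In all, 26 of the 185 rows had a value under 10 TPM in at least 1 library, the lowest being 4.0 TPM. The same was the case for 700 of the 7793 other rows of at least 10 TPM. A further 751 rows without signal in *F. ramosissima* had means from 1 to under 10 TPM in *F. sonorensis*, and 583 had means above 0 and under 1 TPM, so the 185 rows were 12.2% of the 1519 rows with this pattern. At the other limit, the highest row at 0 in 3 of the 4 *F. ramosissima* libraries had 31.9, 31.7, 29.8 and 35.5 TPM in *F. sonorensis*, and 0.09 TPM in *F. ramosissima* replicate 1. The next had 31.3, 29.9, 26.3 and 24.4 TPM, with 0.10 TPM in *F. ramosissima* replicate 4. The one after had 40.7, 27.2, 20.9 and 8.22 TPM, with 0.12 TPM in *F. ramosissima* replicate 1.

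The place of the selected rows in the numbering, which the rule did not use, was uneven. Row numbers reach 34045 for 23519 rows, so some numbers are not listed. Of the 185 rows, 175 had a row number up to 20000 and 10 (5.41%) a higher one, whereas 39.8% of the other rows of at least 10 TPM had a higher one. Expressed as a share of all rows of at least 10 TPM, the selected rows made up 3.60% up to row number 20000 and 0.321% above it. In blocks of 2000 row numbers, the share ranged from 1.59% to 6.08% in the 10 blocks up to 20000. The largest share was found from 14001 to 16000, with 23 of 378 rows, and no selected row was found from 22001 to 24000 among 478 rows, nor from 28001 to 32000. Rows at 0 throughout *F. ramosissima* at any *F. sonorensis* level, 0 included, were also unevenly distributed. They made up 8.51% to 23.2% of all rows of a block up to 20000, 1.91% to 6.09% from 20001 to 32000, and 13.4% from 32001 to 34000. In that last block the selected rows made up only 0.683% of the rows of at least 10 TPM. A low share from 22001 to 32000 was thus also seen in this larger set, which includes the 185 rows, but the distributions differed beyond 32000. Of the 243 rows that were under 1 TPM in *F. ramosissima* without being at 0 throughout, 33.3% had a row number above 20000, compared with 5.41% of the 185. What orders the rows is not given in the sources used here, the division at 20000 was made after the values were seen, and no test was made.

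**Figure D5:**
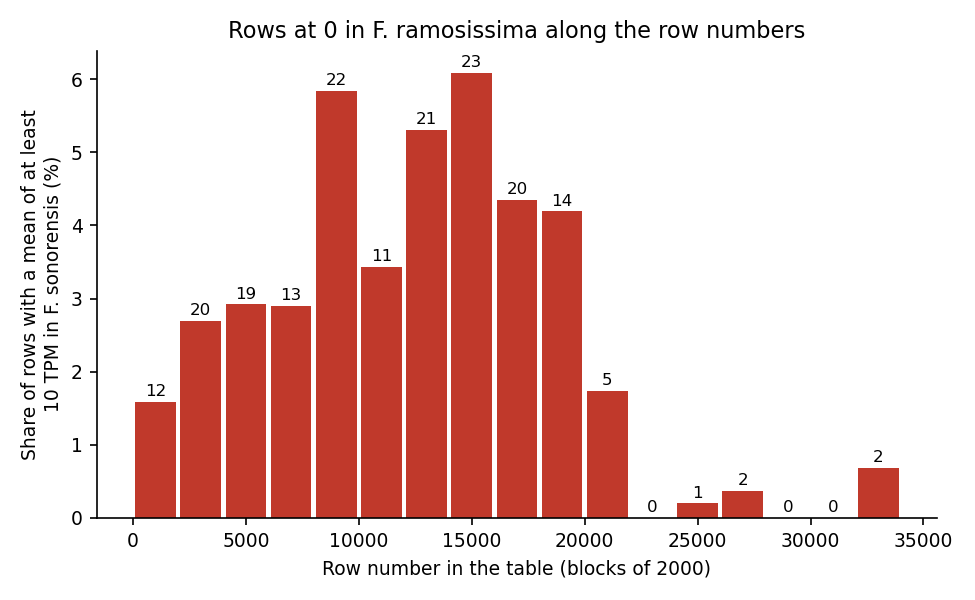
Selected rows as a percentage of all rows averaging 10 TPM or more in *F. sonorensis*, in blocks of 2000 row numbers, with the number of selected rows above each bar. The share is 1.59% to 6.08% up to row number 20000 and at most 1.74% beyond it. The last block, above 34000, with 6 such rows and none selected, is left out.

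The rows next to a selected row were examined within the lower part of the numbering. Up to row number 20000, 15.6% of the 231 rows directly before or after a selected row were at 0 throughout *F. ramosissima*, compared with 14.4% of the 6357 rows next to the other rows of at least 10 TPM. When only adjacent rows of 10 TPM or more were counted, 5.06% (4 of 79) of those next to a selected row were themselves selected, compared with 3.0% (75 of 2501) of those next to other rows. The 4 form 2 pairs with consecutive numbers, the rows ranked 60 and 111 and the rows ranked 38 and 123. In the first pair, the row ranked 60 had 29.8, 31.2, 28.8 and 32.7 TPM and the row ranked 111 had 19.4, 14.2, 20.7 and 15.9 TPM. In the second pair, the row ranked 38 rose to 129 TPM in replicate 4, whereas its neighbour, the row ranked 123, had 14.5, 18.7, 16.4 and 15.2 TPM and no peak in that library.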

How the data were processed

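RNA was extracted from leaves with a commercial kit and sequenced on an Illumina platform with paired-end reads of 150 bp, per the labels. The authors deposited 1 table in TPM, with RSEM named in the submitters' processing notes. No aligner or reference is named, and how rows of both species were joined is not given in the sources used here. TPM keeps no read depth, so the depth is unknown and no counting interval was computed.

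Columns were assigned to samples by species and replicate number. Rows were selected as stated in the report, and the rows, the rule and the measures were chosen with earlier results of these data known. Shares, ranks (1 is the highest), CVs and SDs of log2(TPM + 1) were computed over the 4 *F. sonorensis* libraries. No test between the species was made, since the selection fixes the difference. Values are given for the 20 highest rows, the 3 with the largest and the 3 with the smallest CV, 3 on either side of the 10 TPM limit and 3 at 0 in 3 *F. ramosissima* libraries, and only the 2 highest are named. The rows ranked 38, 57, 164 and 175 and the consecutive pairs were added after their values were seen.

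Alternatives were other limits (5 and 20 TPM, none, 10 TPM in every library), other criteria for 0, rescaling of columns to 1000000, TMM factors (a trimmed mean of log ratios, with 30% of the ratios and 5% of the abundances trimmed at each end), quantile normalization, pseudocounts of 0.1 and 5, and leaving out each library. The code for selection and scaling was run on simulated data, which checks only that it computes what is stated. For scaling, all simulated columns shared the *F. sonorensis* profile, so scaling between unlike species was not tested. Python 3.11.15, numpy 2.4.6 and pandas 2.3.3 were used.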

Additional observations from a re-analysis of the deposited data

Results flagged for a closer look

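In 7 of 44 groups of 4 *F. sonorensis* values examined, the highest or lowest value was separated from its nearest neighbour by a gap, as a share of the whole range, above Dixon's 95% critical value for 4 values, and chance gives about 1 in 20. The 44 include rows named for their large CV, so this share is not that of all rows. Over all 185 rows it was 8.65% (16 rows), compared with 6.49% of the other rows of at least 10 TPM.

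The gap was 0.998 of the range for the row ranked 16 (439 TPM in replicate 1) and 0.987 for the row ranked 31 (217 TPM in replicate 1). It was 0.870 for the row ranked 34, 0.924 for the row ranked 38 and 0.946 for the row ranked 57, all highest in replicate 4. It was 0.877 for a row just under the 10 TPM limit, which had 11.4 TPM in replicate 3 and 9.25, 9.24 and 9.50 TPM in the others. The median TPM of the 185 rows had a gap of 0.921, with 20.8 TPM in replicate 4 and 19.5 to 19.6 TPM in the other replicates. The cause was not tested for any of them.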

How the results depend on the processing

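The 185 rows became 331 with a limit of 5 TPM, 94 with 20 TPM, 1519 without a limit, 428 when values below 1 TPM counted as 0, and 119 after TMM scaling, which divides *F. sonorensis* values by 1.64 to 1.71 and so leaves fewer rows above 10 TPM. With 10 TPM required in every library it was 159, and after quantile normalization 151. The share of *F. sonorensis* TPM, 2.28%, was 2.40%, 2.13%, 2.60%, 3.23% and 2.18% under the first 5 of these settings, in that order, and 2.37% after quantile normalization. The median abundance, 20.9 TPM, was 11.8, 38.3, 1.58, 18.2 and 18.4 TPM under the same 5 settings. It was 19.9 TPM after quantile normalization, 22.9 TPM with 10 TPM in every library, 20.2 TPM with values below 0.1 TPM counted as 0 and 19.8 TPM with 0 in at least 3 libraries. The median rank, 5097, was 7341, 3090.5, 13441, 5644.5 and 3778 under the same 5 settings, 4504, 4806, 5227.5 and 5289 under the 4 just named, and 5595.5 with columns rescaled to 1000000; all alternatives for the rank were added after the data were seen. The median SD of log2(TPM + 1), 0.18, was 0.28 without a limit and 0.15 with a pseudocount of 5. Leaving out each library gave 182 to 191 rows, a share of 2.27% to 2.30%, a median of 19.7 to 20.9 TPM, a median rank of 5097 to 5308 and a median SD of 0.14 to 0.18 on the log2 scale. The latter was lowest without *F. sonorensis* replicate 1, and of the 185 rows 180 to 185 remained in these settings. No paired analysis was possible because no result comes from a test between the species. How low a level a listed 0 can hide is limited by the depth, which is unknown, and by rounding to 2 decimals.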
